A study of Cavia porcellus with 12 samples.

Results

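The enzymes of phase I and phase II drug metabolism were examined in the livers of guinea pigs with NASH (non-alcoholic steatohepatitis) and controls. Members were chosen by symbol only, as the cytochrome P450s of families CYP1 to CYP4, flavin monooxygenases (FMO), aldehyde oxidase, alcohol and aldehyde dehydrogenases (ADH, ALDH), carboxylesterases (CES), epoxide hydrolases (EPHX), UDP-glucuronosyltransferases (UGT), sulfotransferases (SULT), cytosolic and microsomal glutathione transferases (GST, MGST) and arylamine N-acetyltransferases (NAT), with a pair of P450 symbols left out by the rule. In all, 99 of the 11896 human orthologue symbols in the deposited expression table met this rule. Several of these symbols stood for the same guinea pig gene model, so that 72 of the 11031 count rows lay behind them. A count row is called a locus below and is named by its first symbol, and a numbered suffix (*CYP3A4.1*) marks a further locus to which the authors gave the same human symbol.

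The controls were 6 healthy guinea pigs on chow, and the NASH group were 6 guinea pigs on a high-fat diet with added sucrose and cholesterol, each kept on its diet for 25 weeks. All 12 were female (Dunkin) Hartley animals that entered the study at the same age and were block-randomised by body weight. The NASH animals used here were those with bridging fibrosis, so the comparison is between healthy and advanced disease, and diet, steatosis and fibrosis cannot be told apart. Liver from the left lateral lobe was taken without perfusion, each animal was a library of its own, and the animals are named by the numbers in their labels (5, 10, 31, 32, 45 and 56 in controls; 2, 9, 11, 20, 41 and 65 in NASH).

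Phase I enzymes introduce or uncover a polar group on a lipophilic compound. P450s do so in the endoplasmic reticulum with electrons passed on from NADPH, whereas dehydrogenases, oxidases and hydrolases act on alcohols, aldehydes, esters and epoxides. Phase II enzymes then join glucuronic acid, sulfate, glutathione or an acetyl group to the product, which can leave the cell through transporters. Most of these enzymes are found at high level in hepatocytes, where they also handle steroids, retinoids, bile acids, fatty acids and amino acid breakdown products.

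Each animal had between 16980274 and 33091460 counts in total, and levels are stated in CPM, which relate a count to the animal's total after scaling with edgeR's TMM factors (0.804 to 0.875 in controls and 1.12 to 1.24 in NASH). A count of 0 allows a level of up to 0.214 CPM in a control and 0.105 CPM in an animal with NASH, for counting error only. A locus was a DEG when its Benjamini-Hochberg adjusted p-value from edgeR's quasi-likelihood test, over all 11896 symbols, was under 0.05. All adjusted p-values below come from this test unless another is named, and n = 6 in each group throughout. Of the hepatocyte markers looked up, 7 of 9 were in the table, and none was near 0 in any group. Their summed level was between 97267 and 118518 CPM in controls and between 40202 and 61233 CPM in NASH, and 6 were lower and 0 higher (median log2 fold change −0.83). In the same animals 5 of 5 measured cholangiocyte markers and 6 of 7 stellate cell and myofibroblast markers were higher, and the 4 measured erythroid markers rose from a sum of 57.9 to 172 CPM to 430 to 4553 CPM. Of the macrophage, T cell and endothelial markers, 1 of 4, 1 of 5 and 3 of 6 were higher and 1 of each list was lower. In whole liver, fewer hepatocytes and less RNA per hepatocyte cannot be told apart.

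Most of the drug-metabolising loci were lower in guinea pigs with NASH. Of the 72 loci, 47 (65.3%) were lower, 8 (11.1%) were higher and 17 did not pass the test, where 53.9% of all count rows passed it, 25.4% as lower and 28.6% as higher. The median log2 fold change of the loci was −0.86, against 0.01 over all count rows. A fall of more than 2-fold was found in 26 of the DEGs and a rise of that size in 7. In 35 loci every animal with NASH lay below every control and in 5 every animal with NASH lay above, while 14.7% of all count rows were without overlap in the lower and 19% in the higher direction. With library size alone these were 20 and 8 loci. Counted by symbol, 67 of 99 members were lower and 8 higher, with a median of −0.92 (over all symbols 26% were lower and 27.9% higher, with a median of 0). Phase I had 53 loci, of which 32 were lower and 7 higher (median −0.94), and phase II had 19, of which 15 were lower and 1 higher (median −0.76). With library size alone as the scaling, the median of all symbols moved to 0.48 and that of the loci to −0.39, so that 32 loci were lower and 13 higher. Beside the loci whose direction turned, which are given with their class, the calls of *CYP4A11*, *ADH5*, *ALDH5A1*, *CES1.2*, *UGT2A3.1*, *SULT1E1*, *SULT2A1*, *GSTA4*, *GSTM4*, *GSTO1*, *MGST2* and *MGST3* as lower were lost under that scaling, with log2 fold changes from −0.42 to −0.08. The distance between the medians was −0.86 under that scaling and −0.87 with the TMM factors. A change of scaling moves all log2 values by about the same amount, so this distance could hardly change.

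**Figure D1:**
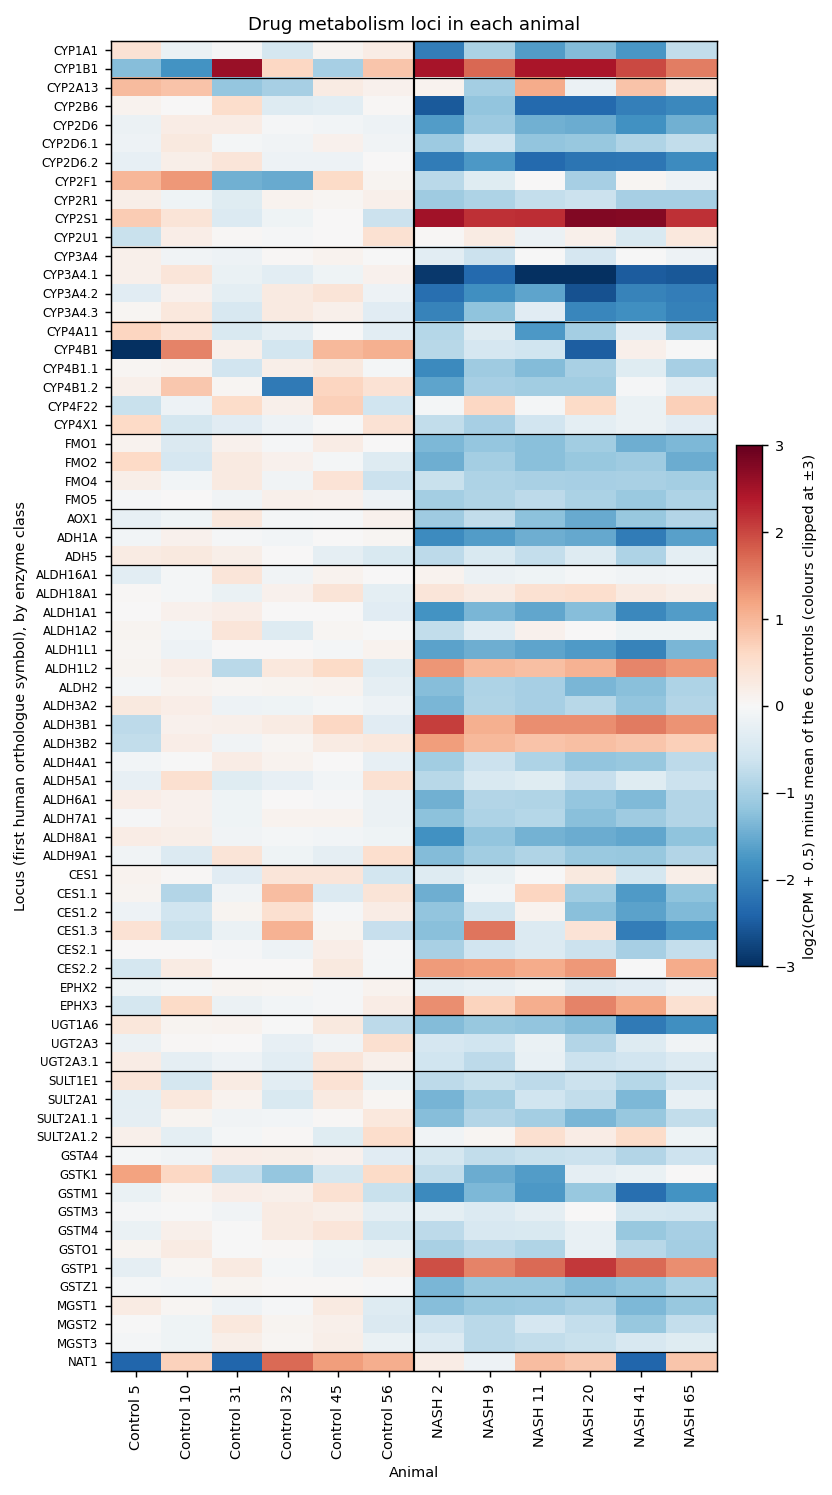
Level of 71 loci (rows, grouped by enzyme class) in the 12 animals (columns), as log2 of CPM plus 0.5 minus the mean of the 6 controls, with colours clipped at 3 on either side. Blue is below and red above the control mean; 34 of these loci were lower in all 6 animals with NASH than in any control, and the rows of *CYP2S1*, *GSTP1*, *ALDH1L2*, *ALDH3B1* and *ALDH3B2* were higher in all 6.

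The loci together, and most classes, also had a lower share of all counts, which corresponds to scaling by library size alone. The 72 loci together took 5.45 ± 0.318% of the counts in controls (SD, n = 6; range 5.04 to 5.92%) and 3.07 ± 0.444% in guinea pigs with NASH (SD, n = 6; range 2.54 to 3.67%), which is 1.78-fold lower, without overlap. The CYP2 loci fell from 1.09 ± 0.184% to 0.447 ± 0.0852% and the CYP3 loci from 0.667 ± 0.0603% to 0.298 ± 0.0442% (SD, n = 6 each). The share of the ADH loci was 2.13-fold lower without overlap. That of the GST loci was 1.82-fold lower, with overlapping ranges (0.449 to 0.798% in controls and 0.268 to 0.494% in NASH), and the ranges of the CYP1, CYP4, AOX, UGT and SULT loci met or overlapped as well. The carboxylesterases had 0.92 ± 0.201% in controls and 0.722 ± 0.311% in NASH (SD, n = 6 each), and these ranges overlapped (0.629 to 1.2% and 0.449 to 1.29%). The share of the epoxide hydrolases was 0.0211 ± 0.00199% in controls and 0.0245 ± 0.00136% in NASH, with overlapping ranges (0.018 to 0.0233% and 0.0227 to 0.0264%), and that of the NAT locus was 0.000321 ± 0.000276% and 0.000334 ± 0.000202% (SD, n = 6 each).

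The CYP3 family, whose human members oxidise a large part of the drugs in use as well as steroids, was represented by 4 loci that each carried the symbols *CYP3A4*, *CYP3A5*, *CYP3A7*, *CYP3A43* and the readthrough *CYP3A7.CYP3A51P*, 20 symbols in all. Which guinea pig locus corresponds to which human enzyme can therefore not be said, and because multimapped reads were ignored, levels of near-identical copies are uncertain. The locus *CYP3A4.1* had the largest fall of all 72. Its lowest, median and highest levels were 2611, 3292 and 4209 CPM in controls and 265, 503 and 651 CPM in NASH. No animal with NASH came near the lowest control, and the log2 fold change was −2.78 (SE 0.21, adjusted p = 5.05e-07), or 6.86-fold lower. *CYP3A4.2* had 2114, 2686 and 3543 CPM in controls against 440, 654 and 894 CPM in NASH, again without overlap (log2 fold change −2.06, SE 0.18, adjusted p = 1.67e-06). *CYP3A4.3* was at 173 to 300 CPM in controls (median 258) and at 58.1 to 189 CPM in NASH (median 63.9). Here NASH 11, at 189 CPM, lay within the control range, and the log2 fold change was −1.45 (SE 0.30, adjusted p = 0.00127), or −1.81 without that animal. The remaining locus, *CYP3A4* itself, had 1399, 1563 and 1715 CPM in controls and 986, 1324 and 1537 CPM in NASH. Its log2 fold change of −0.26 did not pass the test (adjusted p = 0.0768), passed it at −0.31 without NASH 11 (adjusted p = 0.0442) or without NASH 41 (adjusted p = 0.044), and was 0.21 with library size alone.

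The CYP2 family held 9 loci, of which 5 were lower and 1 higher. *CYP2D6* and *CYP2D7*, the human pair of a working enzyme for many antidepressants and opioids and its pseudogene, shared each of 3 guinea pig loci, and all 3 were lower without overlap. *CYP2D6.2* fell from 2839, 3243 and 4335 CPM (lowest, median, highest) to 666, 772 and 1022 CPM, with −2.07 as log2 fold change (SE 0.14, adjusted p = 1.75e-07). *CYP2D6* fell from 3568, 3892 and 4750 CPM to 1153, 1471 and 1890 CPM (log2 fold change −1.48, SE 0.13, adjusted p = 1.29e-06). *CYP2D6.1* was lower by less, from a median of 242 to 127 CPM (log2 fold change −0.94, adjusted p = 2.15e-05). *CYP2B6*, the phenobarbital-inducible P450 that metabolises bupropion and efavirenz, had the most counts of the family and was at 3543, 4720 and 6699 CPM in controls. In NASH it was at 800, 1017 and 2033 CPM, with NASH 9 highest, and was 4.06-fold lower (log2 fold change −2.02, SE 0.24, adjusted p = 1.5e-05). *CYP2R1*, the vitamin D 25-hydroxylase, fell from a median of 31 to 14.8 CPM (log2 fold change −0.92, SE 0.11, adjusted p = 1.69e-05). *CYP2A13*, *CYP2F1* and *CYP2U1* did not pass the test.

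*CYP2S1*, a P450 known mainly from epithelia outside the liver, went the other way and had the largest rise of the 72 loci. Its lowest, median and highest levels were 2.15, 3.44 and 6.5 CPM in controls and 18.2, 20.7 and 27.5 CPM in NASH. All 6 animals with NASH were above all 6 controls, and the log2 fold change was 2.54 (SE 0.24, adjusted p = 3.17e-06), or 5.80-fold higher.

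Of the CYP1 family, the aryl hydrocarbon-inducible *CYP1A1* had 338, 499 and 659 CPM in controls and 116, 175 and 292 CPM in NASH. The groups did not overlap, and it was 2.58-fold lower (log2 fold change −1.37, SE 0.23, adjusted p = 0.000271). *CYP1B1*, which hydroxylates oestrogens and polycyclic hydrocarbons and is mostly found outside hepatocytes, was at 5.53 to 11.1 CPM in NASH (median 9.32). In controls it was at 0.103, 0.357, 0.535, 2.71, 3.23 and, in Control 31, 12.1 CPM. With this control the log2 fold change was 1.45 and did not pass the test (adjusted p = 0.114), and without it the value was 2.67 (adjusted p = 0.003). *CYP1B1* also passed with all 12 animals with limma-voom (2.77, adjusted p = 0.00706 from limma) and with library size alone (1.90, adjusted p = 0.037).

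Among the 6 CYP4 loci, which code for fatty acid hydroxylases and related enzymes, 2 were lower and none was higher. The locus shared by *CYP4A11*, *CYP4A22*, *CYP4F11* and *CYP4F12* was at 402, 498 and 856 CPM in controls and at 166, 288 and 439 CPM in NASH. The groups overlapped, and the log2 fold change was −0.87 (SE 0.25, adjusted p = 0.0101). *CYP4B1.1* fell from 8.38, 13.5 and 15.6 CPM to 2.99, 5.97 and 9.82 CPM (log2 fold change −1.11, SE 0.23, adjusted p = 0.00148). *CYP4B1.2* and *CYP4X1* had log2 fold changes of −1.01 and −0.89 and adjusted p-values of 0.0533 and 0.0513. Without NASH 41 both passed the test, at −1.23 (adjusted p = 0.0306) and −1.03 (adjusted p = 0.0422), and 4 loci of the family were then lower. *CYP4B1.2* passed without Control 32 too (adjusted p = 0.00253), and *CYP4X1* without Control 10 or Control 31 (adjusted p = 0.0289 and 0.0412). Both also passed with DESeq2 (adjusted p = 0.0218 and 0.036). *CYP4F22* had 5.36 to 14.8 CPM in controls and 7.58 to 14.9 CPM in NASH, with a log2 fold change of 0.22 (adjusted p = 0.52) that was 0.68 with library size alone (adjusted p = 0.0388).

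Flavin monooxygenases oxidise nitrogen and sulfur atoms in drugs and food constituents, and *FMO1*, *FMO2*, *FMO4* and *FMO5* were each lower in every animal with NASH than in any control. *FMO1* fell from 775, 1083 and 1211 CPM to 377, 425 and 509 CPM (log2 fold change −1.27, SE 0.11, adjusted p = 1.48e-06). *FMO2*, the form of the lung, was scarce, at 2.21 to 5.29 CPM in controls and 0.875 to 1.4 CPM in NASH (log2 fold change −1.60, SE 0.23, adjusted p = 8.03e-05). *FMO4* and *FMO5* had log2 fold changes of −0.96 and −0.95. The molybdenum enzyme *AOX1*, which oxidises aldehydes and aromatic nitrogen heterocycles, went from 593, 683 and 875 CPM to 247, 329 and 417 CPM, and was 2.12-fold lower without overlap (log2 fold change −1.08, SE 0.13, adjusted p = 1.99e-05).

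Both alcohol dehydrogenase loci were lower. The locus of the class I enzymes *ADH1A*, *ADH1B* and *ADH1C*, which oxidise ethanol and retinol, was at 2791, 2937 and 3225 CPM in controls. It was at 695, 943 and 1074 CPM in NASH, and the log2 fold change was −1.70 (SE 0.11, adjusted p = 1.49e-07), or 3.25-fold lower. *ADH5*, the glutathione-dependent formaldehyde dehydrogenase, fell by 0.61 on the log2 scale (adjusted p = 0.00368), with overlap between the groups (207 to 347 CPM in controls and 149 to 230 CPM in NASH).

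The aldehyde dehydrogenases formed the largest class, with 16 loci of which 10 were lower, 4 higher and 2 not called. *ALDH1A1*, which turns retinal into retinoic acid, had 4149, 5314 and 6031 CPM in controls and 1370, 1714 and 2177 CPM in NASH. This was 3.02-fold lower without overlap (log2 fold change −1.59, SE 0.13, adjusted p = 7.91e-07). *ALDH2*, the mitochondrial acetaldehyde dehydrogenase, whose row also carried the clone-based symbol *AC002996.1*, fell from 1232, 1546 and 1595 CPM to 577, 681 and 778 CPM (log2 fold change −1.12, SE 0.10, adjusted p = 2.01e-06). The members that act in amino acid breakdown were lower too. *ALDH8A1* of tryptophan breakdown had a log2 fold change of −1.44 (adjusted p = 5.95e-07), *ALDH6A1* of valine breakdown −1.09 (adjusted p = 6.21e-06), *ALDH7A1* of lysine breakdown −1.04 (adjusted p = 1.73e-06) and *ALDH4A1* of proline breakdown −0.95 (adjusted p = 1.15e-05). *ALDH3A2*, the fatty aldehyde dehydrogenase, *ALDH9A1*, which has a part in carnitine synthesis, and *ALDH5A1*, the succinic semialdehyde dehydrogenase, had log2 fold changes of −1.03, −1.10 and −0.59 (adjusted p = 9.69e-06, 6.17e-05 and 0.00794).

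The cytosolic and the mitochondrial 10-formyltetrahydrofolate dehydrogenases moved in opposite directions. *ALDH1L1*, the cytosolic form, fell from 1136, 1280 and 1366 CPM to 316, 419 and 490 CPM (log2 fold change −1.61, SE 0.10, adjusted p = 1.49e-07). *ALDH1L2*, the mitochondrial form, rose from 21.5, 41.9 and 56.6 CPM to 70.7, 86.6 and 106 CPM (log2 fold change 1.12, SE 0.20, adjusted p = 0.000521). In each of the pair the groups did not overlap. *ALDH3B1* and *ALDH3B2*, related enzymes that oxidise lipid-derived aldehydes, were scarce and higher in NASH. *ALDH3B1* had 1.79, 3.88 and 5.56 CPM in controls and 7.77, 9.95 and 16.1 CPM in NASH (log2 fold change 1.54, SE 0.24, adjusted p = 0.000163). *ALDH3B2* rested on 0 to 12 counts per control and 25 to 44 counts per animal with NASH (log2 fold change 1.58, SE 0.38, adjusted p = 0.00377). The smallest rise was that of *ALDH18A1*, which makes pyrroline-5-carboxylate for proline synthesis. Its levels were 44 to 71.2 CPM in controls and 60.8 to 76.3 CPM in NASH, and its log2 fold change of 0.32 (SE 0.11, adjusted p = 0.026) did not pass the test without Control 10, Control 31, Control 56, NASH 11 or NASH 20. Over the 12 fits with an animal left out it lay between 0.27 and 0.41 (adjusted p up to 0.0568). *ALDH16A1* and *ALDH1A2* were not called, and their log2 fold changes of −0.08 and −0.19 were 0.39 and 0.28 with library size alone, where *ALDH16A1* passed the test as higher (adjusted p = 0.0106) and *ALDH1A2* did not (adjusted p = 0.108).

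**Figure D2:**
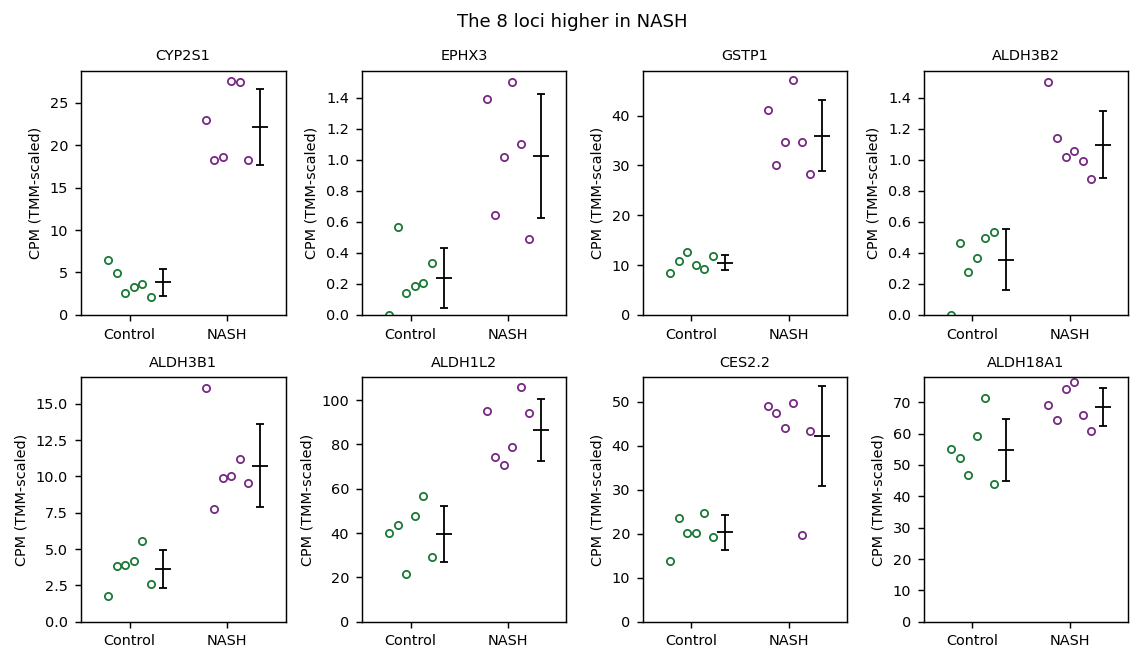
CPM of the 8 loci that were higher in NASH, as a circle for each animal, with the mean and SD of 6 animals as bars. In *CYP2S1*, *GSTP1*, *ALDH3B2*, *ALDH3B1* and *ALDH1L2* all 6 animals with NASH lie above all 6 controls; in *CES2.2* NASH 41, at 19.8 CPM, lies among the controls.

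The carboxylesterases hydrolyse ester prodrugs, and *CES1* is the main form of the human liver. Of 4 loci with the symbol *CES1*, 1 passed the test. *CES1.2*, with the most counts, was at 5235, 8120 and 11067 CPM in controls and at 2609, 3418 and 8608 CPM in NASH. NASH 11, at 8608 CPM, was above the median control, and the log2 fold change was −0.88 (SE 0.28, adjusted p = 0.0189) with it and −1.18 without it. *CES1.1* did not pass the test at −0.67 (adjusted p = 0.198) and passed it at −1.09 without NASH 11 (adjusted p = 0.0223). *CES1* and *CES1.3* both had a log2 fold change of −0.12, which was 0.35 and 0.36 with library size alone. The 2 loci of *CES2*, the intestinal form in humans, differed in direction. *CES2.1* fell from 1607, 1760 and 2056 CPM to 890, 1113 and 1330 CPM without overlap (log2 fold change −0.71, SE 0.11, adjusted p = 0.00012). *CES2.2* rose from 13.8, 20.2 and 24.8 CPM to 19.8, 45.8 and 49.7 CPM (log2 fold change 1.05, SE 0.21, adjusted p = 0.000907), with NASH 41 at the level of the controls.

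Of the epoxide hydrolases, *EPHX2*, which opens the epoxides of arachidonic acid, had 224, 249 and 266 CPM in controls and 185, 207 and 227 CPM in NASH. Its log2 fold change was −0.26 (SE 0.07, adjusted p = 0.00753), and with library size alone it was 0.21 (adjusted p = 0.0191), a change of direction, while with every count row it was −0.17 and not called (adjusted p = 0.0932). *EPHX3* had 0 to 11 counts per control and 14 to 48 counts per animal with NASH, or 0.238 ± 0.193 and 1.02 ± 0.399 CPM (SD, n = 6 each). It was 4.18-fold higher (log2 fold change 2.06, SE 0.48, adjusted p = 0.00291), with overlap between the groups.

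In phase II, all 3 glucuronosyltransferase loci were lower. *UGT1A6*, which conjugates small planar phenols, had 1518, 2790 and 3290 CPM in controls and 605, 1055 and 1198 CPM in NASH, without overlap (log2 fold change −1.48, SE 0.21, adjusted p = 7.27e-05). *UGT2A3.1* and *UGT2A3* had log2 fold changes of −0.55 (adjusted p = 0.00321) and −0.45 (adjusted p = 0.0217), and the latter was at 0.02 with library size alone and lost its call at −0.36 with every count row (adjusted p = 0.0639).

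Among the sulfotransferases 3 of 4 loci were lower. *SULT1E1*, the oestrogen sulfotransferase, whose row also carried *AC108941.2*, was at 91.8 to 179 CPM in controls (median 137) and at 72.9 to 89.3 CPM in NASH (median 79.7), and it was 1.70-fold lower (log2 fold change −0.77, SE 0.16, adjusted p = 0.00119). *SULT2A1*, which sulfonates dehydroepiandrosterone and bile acids, stood for 3 loci. *SULT2A1* fell from 538, 777 and 908 CPM to 278, 397 and 627 CPM (log2 fold change −0.86, SE 0.21, adjusted p = 0.00366). *SULT2A1.1* fell from 52.7, 63.2 and 79.4 CPM to 24.3, 30.1 and 38.1 CPM without overlap (log2 fold change −1.07, SE 0.12, adjusted p = 1.34e-05). *SULT2A1.2* had 64.7 to 121 CPM in controls and 76.2 to 123 CPM in NASH, and its log2 fold change of 0.18 did not pass the test (adjusted p = 0.395), but with library size alone it was 0.65 and did (adjusted p = 0.00449).

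Of the 8 glutathione transferase loci 6 were lower, 1 was higher and *GSTK1* was not called. *GSTM1*, a mu-class enzyme that conjugates epoxides and quinones, had 3214, 5491 and 7072 CPM in controls and 1068, 1504 and 2326 CPM in NASH. It was 3.23-fold lower without overlap (log2 fold change −1.69, SE 0.22, adjusted p = 3e-05). *GSTZ1*, the maleylacetoacetate isomerase of tyrosine breakdown, fell from 395, 420 and 442 CPM to 160, 185 and 216 CPM (log2 fold change −1.18, SE 0.08, adjusted p = 1.75e-07). *GSTO1*, *GSTA4* and *GSTM4* had log2 fold changes of −0.77, −0.70 and −0.67 (adjusted p = 0.000355, 6.24e-05 and 0.00667). *GSTM3* fell by 0.34 (adjusted p = 0.0197), was at 0.14 with library size alone, and lost its call at −0.26 with upper-quartile factors (adjusted p = 0.0645) and with every count row (adjusted p = 0.103). *GSTP1*, the pi-class enzyme that in several species is high in bile duct cells and low in hepatocytes, rose from 8.5, 10.4 and 12.6 CPM to 28.2, 34.8 and 47.1 CPM. All 6 animals with NASH were above all 6 controls, and it was 3.42-fold higher (log2 fold change 1.78, SE 0.14, adjusted p = 6.61e-07). The summed level of the 5 cholangiocyte markers found in the table (*KRT19*, *KRT7*, *EPCAM*, *SPP1* and *CFTR*) was between 73.2 and 115 CPM in controls and between 302 and 539 CPM in NASH. The median of their log2 fold changes was 3.09, and no marker was at 0 throughout. Its part in the rise of *GSTP1*, *CYP2S1* and the other loci that were higher was not tested.

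The 3 microsomal glutathione transferases were all lower without overlap. *MGST1*, which also reduces lipid hydroperoxides, fell from 1627, 2172 and 2559 CPM to 834, 977 and 1090 CPM (log2 fold change −1.17, SE 0.12, adjusted p = 4.54e-06). *MGST2* and *MGST3* had log2 fold changes of −0.76 and −0.58 (adjusted p = 0.00027 and 0.000337), which with library size alone were −0.28 and −0.10 and did not pass the test (adjusted p = 0.0657 and 0.391).

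**Figure D3:**
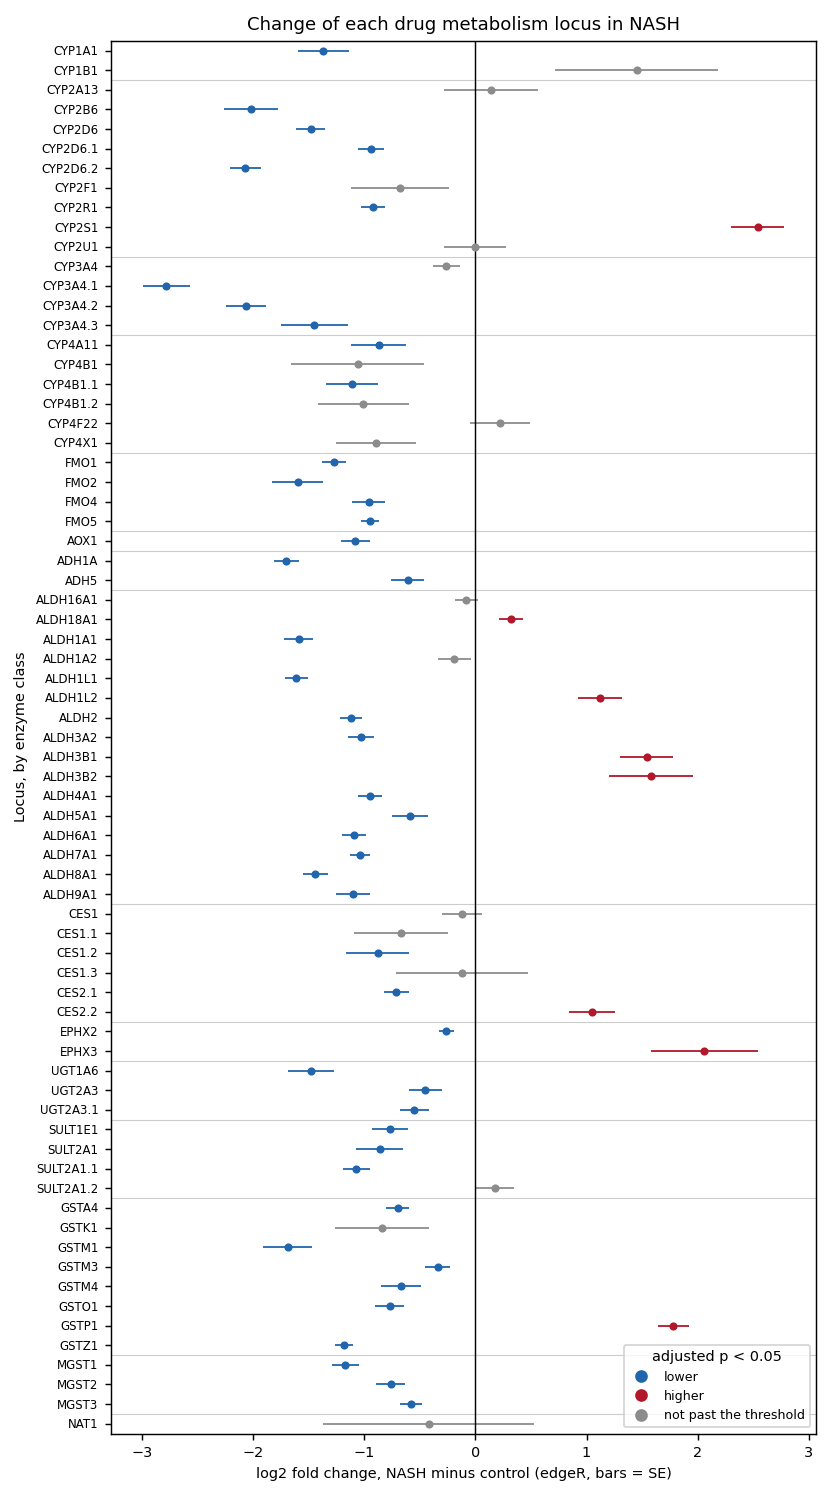
Log2 fold change (NASH minus control) of each of 71 loci with its standard error as a bar, by enzyme class, from edgeR with 6 animals in each group. Blue loci were lower, red loci higher and grey loci not called; the values run from −2.78 (*CYP3A4.1*) to 2.54 (*CYP2S1*), and with library size alone the called loci *EPHX2*, *GSTM3* and *UGT2A3* and the loci not called *ALDH16A1*, *ALDH1A2*, *CES1*, *CES1.3*, *CYP3A4* and *NAT1* lie on the other side of 0.

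Set against the hepatocyte markers, 38 of the 72 loci had a log2 fold change below the marker median of −0.83. The order of the medians depended on the method, with −0.86 for the loci and −0.83 for the markers in edgeR, −0.82 and −0.93 in limma-voom, and −0.5 and −0.61 with limma on rlog values. With library size alone in edgeR they were −0.39 and −0.35. The fall of the markers and that of the enzymes were present in the same libraries, and the part of the former in the latter was not tested. Over the 47 lower loci, the median log2 difference from the control mean was between −1.29 (NASH 2) and −0.94 (NASH 9). NASH 41 had the lowest value of its group in 17 of these loci and NASH 2 in 11. In controls, Control 56 was lowest in 18 and Control 45 in 0, and the median differences from the control mean were between −0.15 and 0.04.

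Loci that share a human symbol did not all change alike. After the values had been seen, the log2 ratio of each pair of loci with the same stem was compared between the groups, which covers 23 pairs of 7 stems and does not depend on the scaling of libraries. The exact permutation test of a ratio was two-sided and used all 924 splits of 12 animals, so that its smallest p was 0.00216, and p-values were adjusted over the 23 pairs. In 10 pairs the adjusted p was under 0.05. Pairs that share a locus are not independent, so a single locus can account for several of them. The ratio of *CYP3A4* to *CYP3A4.1* was −1.08 ± 0.29 in controls and 1.47 ± 0.52 in NASH (log2, SD, n = 6 each), a difference of 2.54 (exact permutation test, adjusted p = 0.00621). *CYP3A4.1* thus went from the higher to the lower locus of this pair in counts. The ratio of *CYP3A4* to *CYP3A4.2* rose by 1.79 and that to *CYP3A4.3* by 1.29 (exact permutation test, adjusted p = 0.00621 each). Between *CYP3A4.1* and *CYP3A4.2* the difference was −0.75 (exact permutation test, adjusted p = 0.0544), and between *CYP3A4.1* and *CYP3A4.3* it was −1.25 (exact permutation test, adjusted p = 0.0111). All 3 CYP2D pairs differed, from −0.54 for *CYP2D6* against *CYP2D6.1* and 0.58 for *CYP2D6* against *CYP2D6.2* to 1.12 for *CYP2D6.1* against *CYP2D6.2* (exact permutation test, adjusted p = 0.00621 each). The ratio of *CES2.1* to *CES2.2* fell by 1.74 on the log2 scale, from 6.47 ± 0.28 to 4.74 ± 0.43 (SD, n = 6 each; exact permutation test, adjusted p = 0.00621). The ratios of *SULT2A1* and *SULT2A1.1* to *SULT2A1.2* changed by −1.07 and −1.26 (exact permutation test, adjusted p = 0.0199 and 0.00621). In no pair of the *CES1*, *CYP4B1* and *UGT2A3* loci was the adjusted p under 0.05, with differences from −0.38 to 0.86. Without NASH 11 the ratio of *CES1* to *CES1.2* differed by 1.06 (exact permutation test, adjusted p = 0.0299). The ratio of *CYP3A4.1* to *CYP3A4.2* passed without Control 32, Control 45 or NASH 65 (−0.87, −0.86 and −0.81; exact permutation test, adjusted p = 0.0199, 0.0299 and 0.0498). That of *CYP3A4.2* to *CYP3A4.3* was −0.50 (exact permutation test, adjusted p = 0.0651) and passed without Control 5, NASH 41 or NASH 65.

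**Figure D4:**
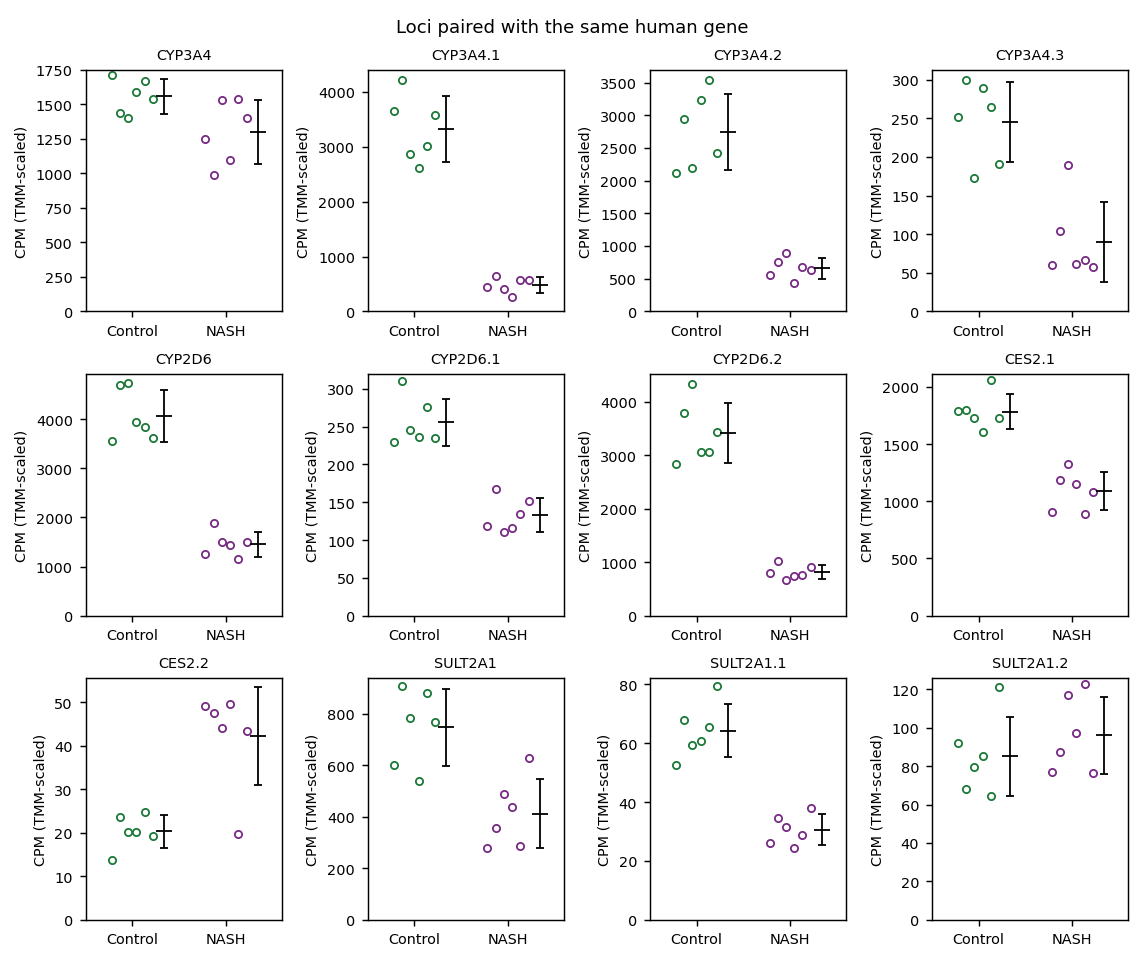
CPM in each animal of the loci that share a human symbol (*CYP3A4*, *CYP2D6*, *CES2* and *SULT2A1*), with the mean and SD of 6 animals as bars. *CYP3A4.1* falls from a range of 2611 to 4209 CPM to one of 265 to 651 CPM, while *CYP3A4* has overlapping ranges of 1399 to 1715 and 986 to 1537 CPM and *CES2.2* rises.

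Several loci varied more among animals of the same group than between the groups, and they were picked out after their values had been seen. The locus of *NAT1* and *NAT2*, the arylamine N-acetyltransferases, had no count in Control 5, Control 31 and NASH 41, and between 63 and 175 counts in each of the other animals. Its levels above 0 were between 3.74 and 8.03 CPM in controls and between 1.84 and 4.46 CPM in NASH, and the log2 fold change of −0.42 had an SE of 0.95 (adjusted p = 0.728) and was 0.04 with library size alone. *CYP4B1* was at 15.6 CPM in Control 5 and at 97.1 to 402 CPM in the other controls, and at 25.2 CPM in NASH 20 and 79.8 to 159 CPM in the other animals with NASH (log2 fold change −1.06, adjusted p = 0.152). Without Control 5 the value was −1.31 (adjusted p = 0.026).

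The human genes of the locus of *CYP2A13*, *CYP2A6* and *CYP2A7* include enzymes that oxidise nicotine and coumarin. This locus and *CYP2F1*, a P450 known from the lung, were both lowest in Control 31 and Control 32 among the controls. *CYP2F1* was there at 74 and 70.5 CPM and at 212 to 498 CPM in the other controls, and in NASH at 100 to 210 CPM. *CYP2A13* was at 10.9 and 12.3 CPM in these controls and at 27.2 to 48.5 CPM in the others, and in NASH at 12.1 to 55 CPM. *GSTK1*, a transferase of mitochondria and peroxisomes, ran from 67.4 CPM in Control 32 to 349 CPM in Control 5 and from 47.2 to 152 CPM in NASH (log2 fold change −0.84, adjusted p = 0.111). *CES1.3* ran from 10.4 to 138 CPM in NASH, with NASH 9 highest, and had a coefficient of variation of 107% there.

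**Figure D5:**
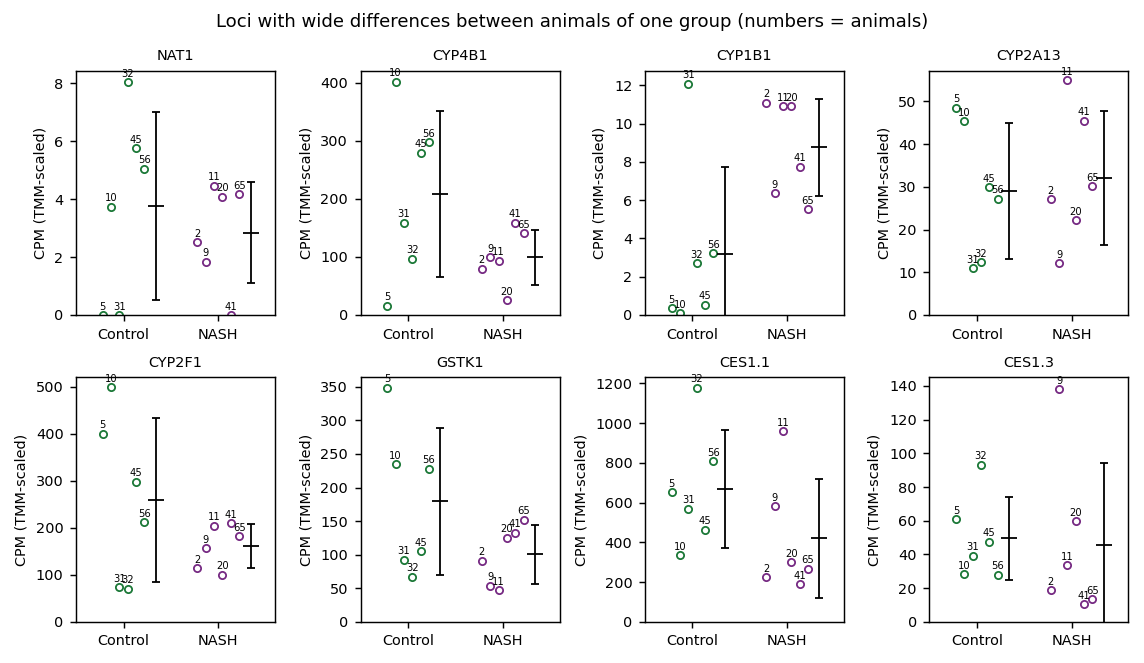
CPM of 8 loci picked after their values were seen for a wide spread between animals, as a circle with the animal number, with the mean and SD of 6 animals as bars (SD bars are cut off at 0). *NAT1* is at 0 in Control 5, Control 31 and NASH 41, *CYP1B1* is at 12.1 CPM in Control 31 and at 3.23 CPM or less in the other controls.

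The partners of these enzymes were followed with 8 short lists of 87 well-known genes, of which 69 loci were found, 39 lower and 12 higher (median log2 fold change −0.45), where 25.4% of all count rows were lower and 28.6% higher. With library size alone 23 were lower and 20 higher. The shares of the lists ran from 25% lower for glutathione, near that of all count rows, to 100% lower for the electron donors. All 6 electron donors of P450s were lower. *POR*, the NADPH-P450 reductase, fell from 486 ± 38.2 to 280 ± 62.2 CPM (SD, n = 6 each; log2 fold change −0.80, adjusted p = 0.000331), and *CYB5A*, cytochrome b5, fell from 1353 ± 119 to 650 ± 39.5 CPM (SD, n = 6 each; log2 fold change −1.06, adjusted p = 3.96e-07). With library size alone 3 of the 6 were lower, and *CYB5R3* (0.04) and *FDXR* (0.06) turned. *CYB5R3* and *CYB5B* also lost their calls with every count row (adjusted p = 0.0532 and 0.0852), and *CYB5B* with upper-quartile factors (adjusted p = 0.0634). The call of *CYB5B*, −0.64 (adjusted p = 0.038), was lost in 8 of the 12 fits with an animal left out.

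The supply of conjugating groups was less uniform. Of 5 genes for UDP-glucuronic acid, 3 were lower and none higher, with *UGP2*, which makes UDP-glucose, at −0.59 (adjusted p = 0.000246), but with library size alone 0 were lower and 2 higher, and with upper-quartile factors or every count row 1 was higher (*GUSB*). Of 5 genes for the sulfate donor, 2 were lower and 2 higher. Without Control 31, without Control 56, with library size alone or with every count row, 1 was lower. *PAPSS1* and *PAPSS2*, the synthases of the sulfate donor, rose from 4.91 ± 1.19 to 9.81 ± 1.04 CPM and from 225 ± 19.4 to 281 ± 17 CPM (SD, n = 6 each; adjusted p = 0.000114 and 0.00207), whereas the sulfate transporter *SLC26A1* fell from 319 ± 20.3 to 115 ± 12.6 CPM (SD, n = 6 each; log2 fold change −1.46, adjusted p = 8.35e-08). Of 8 glutathione genes 3 were higher (37.5%) and 2 lower (25%), and 1 was lower without NASH 41, with library size alone or with every count row. Among the higher genes, *GGT1* lost its call in 7 of the 12 fits with an animal left out (adjusted p up to 0.0891). *GSS*, glutathione synthetase, rose by 0.51 (adjusted p = 3.14e-05), *GCLC*, the catalytic subunit of the rate-limiting ligase, fell by 0.51 (adjusted p = 0.0243; −0.03 with library size alone and not called without NASH 41), and *CHAC1*, which degrades glutathione, was at 0 to 0.184 CPM in controls and at 1.58 to 3.04 CPM in NASH (adjusted p = 4.76e-06). *GGCT*, which acts on gamma-glutamyl amino acids, had the largest fall of this list, −0.85 (adjusted p = 4.11e-05). Of 10 loci for methyl and acyl conjugation 3 were lower (30%) and 2 higher (20%), from −1.45 for *ACSM5* (adjusted p = 0.00683) to 1.98 for *ACSM3* (adjusted p = 0.00013), both medium-chain acyl-CoA synthetases. Of the higher loci 1 was left without any of Control 5, 31, 45 or 56 or NASH 2, 9 or 11, and with library size alone 4 were higher.

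Other oxidoreductases and hydrolases were mostly lower, with 11 of 15 loci lower and 1 higher (8 and 3 with library size alone). The paraoxonases *PON1* and *PON3* had log2 fold changes of −1.56 and −1.80 (adjusted p = 1.49e-07 and 3.83e-07), and butyrylcholinesterase *BCHE*, with overlapping groups, had −2.04 (adjusted p = 0.0114). *XDH*, which makes uric acid, rose from 88.6 ± 15.7 to 220 ± 28.6 CPM (SD, n = 6 each; log2 fold change 1.31, adjusted p = 2.46e-06).

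Of 10 transporter loci 5 were lower and 3 higher, and with library size alone 4 and 3. The uptake transporter *SLCO1B1*, whose row carried 5 symbols, fell from 1058 ± 222 to 226 ± 50.4 CPM (SD, n = 6 each; log2 fold change −2.23, adjusted p = 7.35e-07). The cation exporter *SLC47A1* fell by 2.72 (adjusted p = 0.000949), with overlapping groups (2.76 to 29.5 CPM in controls and 0.893 to 4.06 CPM in NASH). The basolateral exporters *ABCC4* and *ABCC3* rose by 3.51 and 2.15 (adjusted p = 5.2e-06 and 5.77e-07), from 3.47 ± 1.79 to 39.2 ± 11.6 CPM and from 18.8 ± 5.12 to 83.8 ± 9.38 CPM (SD, n = 6 each). The canalicular exporter *ABCC2* had a log2 fold change of −0.29 (adjusted p = 0.0178), which was 0.18 with library size alone and did not pass the test with upper-quartile factors (adjusted p = 0.0554) or every count row (adjusted p = 0.108). *ABCB1* rose by 1.36 (adjusted p = 0.0115), with overlap between the groups. Further loci of the listed symbols were not in these counts. *ABCB1.1* rose from 53.7 ± 13 to 210 ± 59.7 CPM (SD, n = 6 each; log2 fold change 1.97, adjusted p = 5.82e-06), and *SLCO1B1.1* fell from 975 ± 155 to 389 ± 35.5 CPM (SD, n = 6 each; log2 fold change −1.33, adjusted p = 7.78e-07).

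Of the 10 receptors and partners that control these enzymes in other species, 7 were lower and 1 higher, and with library size alone 4 were lower and 2 higher. *NR1I3* (CAR), a regulator of *CYP2B* genes, fell from 90.8 ± 12.1 to 21.1 ± 5.61 CPM (SD, n = 6 each; log2 fold change −2.11, SE 0.17, adjusted p = 6.96e-07), without overlap. *NR1I2* (PXR), a regulator of *CYP3A* genes, had a log2 fold change of −0.67 (adjusted p = 6.43e-05) and their shared partner *RXRA* had −1.03 (adjusted p = 0.000465). *AHR* and *ARNT*, which together act on *CYP1* genes, had log2 fold changes of −0.41 and −0.45 (adjusted p = 0.0344 and 0.000117), which were 0.07 and 0.03 with library size alone. The call of *AHR* was also lost in 9 of the 12 fits with an animal left out, with upper-quartile factors, with every count row and with limma on rlog values (adjusted p up to 0.0671 with an animal left out). *NFE2L2* (NRF2), a regulator of glutathione transferases, had a log2 fold change of −0.07 (adjusted p = 0.574) that was 0.41 with library size alone (adjusted p = 0.00241), and *NR1H4* (FXR) rose by 0.52 (adjusted p = 0.014).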

How the data were processed

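Liver mRNA of 6 NASH and 6 control guinea pigs was sequenced as stranded single reads. The authors deposited raw counts per locus, after Trimmomatic (0.38.0), alignment by HISAT2 (2.1.0) against CavPor3.0 without multimapped reads, and assembly by StringTie (1.3.6), versions per the submitters' processing notes. They also deposited log2 values, the rlog transformation of DESeq2, for loci with a human orthologue symbol and a total of at least 200 counts. Only the latter table holds symbols, and a symbol was paired with the count row that gave its values when the transformation was repeated (largest difference 8e-07 on the log2 scale).

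Counts were analysed with edgeR 4.0.16 in R 4.3.3 (TMM factors, whole-table library sizes, robust glmQLFit, glmQLFTest), with Benjamini-Hochberg adjustment over 11896 symbols. The SE is the absolute log2 fold change over the root of F. The procedure was tested on simulated data. Members and gene lists were chosen with earlier results of these data known. The named genes were the largest rise, the largest fall and the most counts of each class, the 10 largest changes and the extremes of each list, and other members were named in the account of their class. Any other gene of a list was picked after its values were seen. The smallest variance between animals of the same group was 41.9 times counting error, which leaves no duplicate library, and no sequencing batch is given. Alternatives were RLE and upper-quartile factors, library size alone, DESeq2 1.42.0, limma 3.58.1 (voom, and on rlog values), every count row, filterByExpr, each row once, a threshold of 0.01, each animal left out and a test against a log2 fold change of 1. Ratios of copies had a prior count of 0.5. Plots used matplotlib 3.10.9 under Python 3.11.15. Values of 1 member are not reported here, and it is counted in the totals and left out of the plots.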

Additional observations from a re-analysis of the deposited data

Results flagged for a closer look

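In 7 of 144 groups of 6 animals (4.86%), the highest or lowest animal lay further from the others than Dixon's 95% criterion allows, and chance gives about 1 in 20. *CES2.2* was at 19.8 CPM in NASH 41, where the next animal with NASH was at 43.5 CPM. *CYP1B1* was at 12.1 CPM in Control 31, where the next control was at 3.23 CPM. *CYP2B6* was at 2033 CPM in NASH 9 (next 1211 CPM) and *CYP3A4.3* at 189 CPM in NASH 11 (next 104 CPM). *FMO4* was at 195 CPM in NASH 2 (next 165 CPM), *GSTO1* at 625 CPM in NASH 20 (next 427 CPM) and *UGT2A3* at 142 CPM in Control 56 (next 104 CPM). Of these 7 loci, *CYP1B1* was the only one whose call changed without the animal named.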

How the results depend on the processing

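With library size alone, 7603 genes were higher and 911 lower, 13 member symbols and 13 loci were higher, the medians were −0.44 (symbols) and −0.39 (loci), and 20 loci were lower and 8 higher without overlap. Classes are given below only where their count moved clearly, so they do not add up to all loci. Among them, the higher loci were then 1 of CYP1, 1 of CYP4, 2 of EPHX and 1 of SULT. The lower loci were 1 of CYP4, 1 of ADH, 1 of CES and 0 of EPHX. In phase II they were 1 of UGT, 1 of SULT, 2 of GST and 1 of MGST. The pathway lists had 23 lower and 20 higher. The direction turned for *ALDH16A1* (0.39), *ALDH1A2* (0.28), *CES1* (0.35), *CES1.3* (0.36), *CYP3A4* (0.21), *EPHX2* (0.21), *GSTM3* (0.14), *NAT1* (0.04) and *UGT2A3* (0.02). Against a log2 fold change of 1, 853 genes were higher and 247 lower, 27 symbols and 15 loci were lower and 2 symbols and 2 loci higher. Among the classes that moved, the lower loci were 0 of CYP1, 3 of CYP2 and 0 of CYP4. They were also 3 of FMO, 0 of AOX, 1 of ADH, 3 of ALDH, 0 of CES and 0 of EPHX. In phase II they were 1 of UGT, 0 of SULT, 2 of GST and 0 of MGST. The higher loci were 0 of ALDH, 0 of CES and 0 of EPHX, and the lists had 9 lower and 5 higher. With every count row, 5985 rows were higher and 4828 lower, and this fit also held rows without a human symbol. In it 0 EPHX loci were lower, with *GSTM3* and *UGT2A3* not called either. On rlog values the medians were −0.57 (symbols) and −0.5 (loci), and 1 CYP1 locus was higher, as with limma-voom (*CYP1B1*). DESeq2 had 4 CYP4 loci lower, and a threshold of 0.01 left 1 CYP4 and 1 CES locus lower. *CYP2U1* was at 0 with each row once and at −0.02 with limma-voom. The cause of these shifts was not tested.

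With each animal left out in turn, genes higher numbered 3123 to 3290 and lower 2894 to 3074, lower loci 47 to 50 (symbols 67 to 74) and higher ones 7 to 8. CYP1 loci higher were 0 to 1 (1 without Control 31), CYP3 loci lower 3 to 4, CYP4 loci lower 2 to 4 (4 without NASH 41), CES loci lower 2 to 3 (3 without NASH 11), ALDH loci higher 3 to 4, and pairs of copies that differed 10 to 12 (for the pairs these fits, and a prior count of 5 that also gave 10, were chosen after seeing the data). Log2 values that turned were *CES1.3* (−0.87 to 0.17), *CYP2A13* (−0.08 to 0.35) and *CYP2U1* (−0.13 to 0.14), and in the lists *CHAC2* (−0.19 to 0.03) and *PPARA* (−0.04 to 0.24). The ratios *CES1.1* to *CES1.3* (−0.47 to 0.08) and *UGT2A3* to *UGT2A3.1* (0 to 0.16) turned as well. Of the *CYP4B1* copies, *CYP4B1* to *CYP4B1.1* (−0.19 to 0.84), *CYP4B1* to *CYP4B1.2* (−0.52 to 0.49) and *CYP4B1.1* to *CYP4B1.2* (−0.46 to 0.17) turned. None of these values passed its test in the full data. No paired or blocked analysis was possible because the labels give neither pairs nor the body weight blocks. Of the called loci depth limits *EPHX3* and *ALDH3B2* most, with at most 12 counts in a control.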
